A study of Mus musculus with 36 samples.

Results

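The major urinary protein genes described here are the 8 rows of the deposited gene table named Mup1, Mup3, Mup7, Mup9, Mup11, Mup17, Mup20 and Mup21, out of 56748 genes, and all 8 passed the filter on low values in every liver comparison. They were picked by name with earlier results of these data known, and were followed in liver RNA-seq libraries of 18 male mice. In MlklAdi-KO mice both floxed Mlkl alleles are cut by a Cre driven in mature adipocytes, and WT mice were littermates with the same floxed alleles and no Cre, all on C57BL/6J. From 16 weeks of age they were kept for 16 weeks on normal chow diet (NCD; 4 MlklAdi-KO and 4 WT) or on high-fat diet (HFD; 5 MlklAdi-KO and 5 WT), with 1 liver library per mouse and no pooling, so a difference in liver is a difference at a distance from the cells that lose Mlkl. Visceral white adipose tissue (visWAT) of the same mice was sequenced too.

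Major urinary proteins are small lipocalins that hepatocytes secrete into the blood. The kidney passes them into the urine, where they carry volatile pheromones, and circulating forms have been tied to glucose and lipid metabolism. Their genes sit in a tandem cluster and are among the strongest male-biased genes of mouse liver, kept high by the pulsed growth hormone of males acting through the growth hormone receptor and STAT5B. Mup20 encodes darcin, a male sex pheromone.

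Between 20875463 and 25530574 reads fell on genes in each liver library. Adipocyte deletion was visible in visWAT, where Mlkl lay at 1.96 to 2.72 FPKM (fragments per kilobase of gene, scaled to the library's size, a level per length) in MlklAdi-KO mice and at 3.91 to 6.28 FPKM in WT mice, with the exception of the visWAT library labelled WT NCD mouse 182, at 2.29 FPKM. The liver library labelled WT NCD mouse 182 also stood apart from its group. It held the highest value of the 18 livers for 13.3% and the lowest for 17.9% of 13248 genes, against at most 7.63% and 8.65% for any other liver, and its Mup levels were far below all others. Every result that uses it is therefore given with and without it.

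All 8 genes lie on the minus strand of chromosome 4 (GRCm39, coordinates of the deposited table), each as a protein-coding gene. Mup7 (chr4:60066469-60070475), Mup9 (chr4:60374045-60377951), Mup1 (chr4:60454011-60457959), Mup11 (chr4:60614465-60618410) and Mup17 (chr4:61510166-61514108) come first along the chromosome. Mup20 (chr4:61968471-61972395), Mup3 (chr4:62001713-62005579) and Mup21 (chr4:62066169-62069100) close the cluster. The reference transcripts chosen for comparison had 7 exons, or 6 in Mup9 and Mup21.

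The coding sequences held a near-identical group of 5 and 3 more divergent genes. Mup1, Mup7, Mup9, Mup11 and Mup17 were 98.3% to 99.4% identical to each other, 3 to 9 differing bases per pair. Mup3, Mup20 and Mup21 shared 86.8% to 94.9% with each other and 82.2% to 91.3% with the group of 5. These 3 are not a group by sequence. Mup3 and Mup21 were 94.9% identical, while Mup20 was closer to the group of 5 (90.1% to 91.3%) than to Mup3 (86.8%) or Mup21 (87.5%). A stretch of 60 coding bases within 1 exon is shown because it makes this visible. Capitals mark the bases that differ from Mup17, over 20 variable positions (GRCm39, minus strand, read 5′ to 3′):
Mup17 (chr4:61512602-61512661): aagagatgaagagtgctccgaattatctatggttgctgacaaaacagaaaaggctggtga
Mup7 (chr4:60068915-60068974): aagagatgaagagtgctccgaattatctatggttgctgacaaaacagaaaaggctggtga
Mup9 (chr4:60376500-60376559): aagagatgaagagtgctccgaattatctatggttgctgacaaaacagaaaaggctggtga
Mup1 (chr4:60456452-60456511): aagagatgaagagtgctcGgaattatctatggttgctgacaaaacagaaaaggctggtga
Mup11 (chr4:60616901-60616960): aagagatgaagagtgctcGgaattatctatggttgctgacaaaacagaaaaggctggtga
Mup20 (chr4:61970887-61970946): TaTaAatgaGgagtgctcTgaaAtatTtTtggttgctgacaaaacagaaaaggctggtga
Mup3 (chr4:62004210-62004269): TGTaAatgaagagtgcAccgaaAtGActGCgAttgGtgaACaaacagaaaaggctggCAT
Mup21 (chr4:62067605-62067664): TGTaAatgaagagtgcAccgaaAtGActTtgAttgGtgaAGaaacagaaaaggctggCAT

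Mup7, Mup9 and Mup17 could not be told apart within this stretch, and Mup1 and Mup11 each differed from them by 1 base, the same base in both. Mup20 differed by 8, Mup21 by 16 and Mup3 by 17 bases. A read of 150 bases taken from a transcript was found in no other gene for 100% of positions in Mup3 and Mup21, 62.7% in Mup17, 44.4% in Mup20, 28.1% in Mup7, 26.7% in Mup1, 24.0% in Mup11 and 3.03% in Mup9. For Mup9, 86.2% of positions also fitted Mup19. How the authors treated reads that fit several genes is not given in the sources used here, so the split of reads among the 5 near-identical genes and further Mup genes is uncertain and sums are given as well, whereas the values of Mup3 and Mup21 carry no such doubt.

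Upstream of the genes, the near-identical genes were again the closest to Mup17. Each of the 8 windows below holds 2 copies of ATCAAT on the gene's own strand, in capitals, with starts 62 or 63 bases apart. They are shown because the near-identical and the divergent genes all carry the pair. ATCAAT lies within the core letters that homeodomain factors of the Onecut and Cux families recognise. Positions count from the annotated start in the deposited table (GRCm39, minus strand, 5′ to 3′). The last bases of the Mup7, Mup11 and Mup21 windows, with the second ATCAAT of Mup21, lie within the first exon of a reference transcript:
Mup17 (chr4:61514201-61514300): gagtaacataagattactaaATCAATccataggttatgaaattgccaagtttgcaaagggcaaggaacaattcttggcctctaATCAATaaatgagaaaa
Mup11 (chr4:60618503-60618602): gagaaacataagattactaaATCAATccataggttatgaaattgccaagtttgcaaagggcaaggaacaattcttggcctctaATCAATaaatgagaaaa
Mup9 (chr4:60378091-60378190): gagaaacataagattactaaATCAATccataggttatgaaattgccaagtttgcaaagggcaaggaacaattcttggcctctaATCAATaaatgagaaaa
Mup7 (chr4:60070478-60070577): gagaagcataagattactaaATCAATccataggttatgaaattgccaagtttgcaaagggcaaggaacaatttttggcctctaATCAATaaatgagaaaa
Mup1 (chr4:60458076-60458175): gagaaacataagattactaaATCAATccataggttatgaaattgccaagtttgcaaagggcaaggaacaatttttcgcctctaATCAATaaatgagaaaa
Mup20 (chr4:61972493-61972592): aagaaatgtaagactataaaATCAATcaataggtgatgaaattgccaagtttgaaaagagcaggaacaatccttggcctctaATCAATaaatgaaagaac
Mup3 (chr4:62005637-62005736): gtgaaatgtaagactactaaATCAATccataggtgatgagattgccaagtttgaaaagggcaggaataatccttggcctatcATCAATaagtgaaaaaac
Mup21 (chr4:62069155-62069254): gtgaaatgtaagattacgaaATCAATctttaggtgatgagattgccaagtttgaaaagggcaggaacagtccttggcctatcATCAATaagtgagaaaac

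To the Mup17 window, those of Mup9 and Mup11 were 99.0% identical, those of Mup1 and Mup7 97.0%, those of Mup3 and Mup20 84.2% and that of Mup21 83.2%. Motifs were searched on both strands from 250 bases before to 50 after the annotated start. ATCAAT occurred in 7.54% of 32851 mouse promoters of the RefSeq table (GRCm38.p6), but the pair at this distance in only 14 of them (0.0426%), all 14 being among the 38 Mup entries of the table. The pair was picked from Mup windows, so this count is no independent evidence. Mup20 holds a further ATCAAT that overlaps the first copy, and its single TATAAA abuts it. TATAAA was in none of the other 7 windows and in 13.6% of all promoters. TTCNNNGAA, the letters that STAT5 recognises, was in none of the 8 and in 8.30% of all promoters. TGTTCT, part of the glucocorticoid receptor element, was in Mup1, Mup3, Mup20 and Mup21 and in 19.0% of all promoters.

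In liver the 8 genes together were very abundant. Their summed level averaged 13377 ± 832 FPKM in WT NCD mice without the library labelled mouse 182 (SD, n = 3; 10250 ± 6290 with it, n = 4), 11979 ± 2187 in MlklAdi-KO NCD mice (n = 4), 14795 ± 2264 in WT HFD mice (n = 5) and 23950 ± 5654 in MlklAdi-KO HFD mice (n = 5). This was 1.02%, 0.928%, 1.18% and 1.85% of all reads on genes (0.782% in WT NCD with that library). In a bulk library less RNA per hepatocyte and fewer hepatocytes cannot be told apart. Mup3 was the highest member in every liver and made up 52.9% of the sum in WT NCD without the library labelled mouse 182, 57.3% in MlklAdi-KO NCD, 55.9% in WT HFD and 41.6% in MlklAdi-KO HFD mice.

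In WT HFD and in WT NCD mice (without the library labelled mouse 182) the order of the mean levels was Mup3, Mup20, Mup7, Mup17, Mup21, Mup11, Mup1 and Mup9. Apart from Mup3 and Mup21, these levels depend on how reads that fit several genes were treated, which is not known. Mup20 and Mup7 were close in WT HFD mice, at 3022 ± 653 and 1985 ± 1009 FPKM (SD, n = 5). In MlklAdi-KO NCD mice Mup21 came before Mup17, at 297 ± 131 and 210 ± 167 FPKM (SD, n = 4), a difference within their spread. In MlklAdi-KO HFD mice Mup7 moved to the second place, above Mup20 in each of the 5 livers. Mup20 and Mup17 did not differ there beyond their spread, at 3600 ± 868 and 3416 ± 1174 FPKM, nor did Mup21 and Mup11, at 475 ± 44 and 338 ± 170 FPKM.

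**Figure D1:**
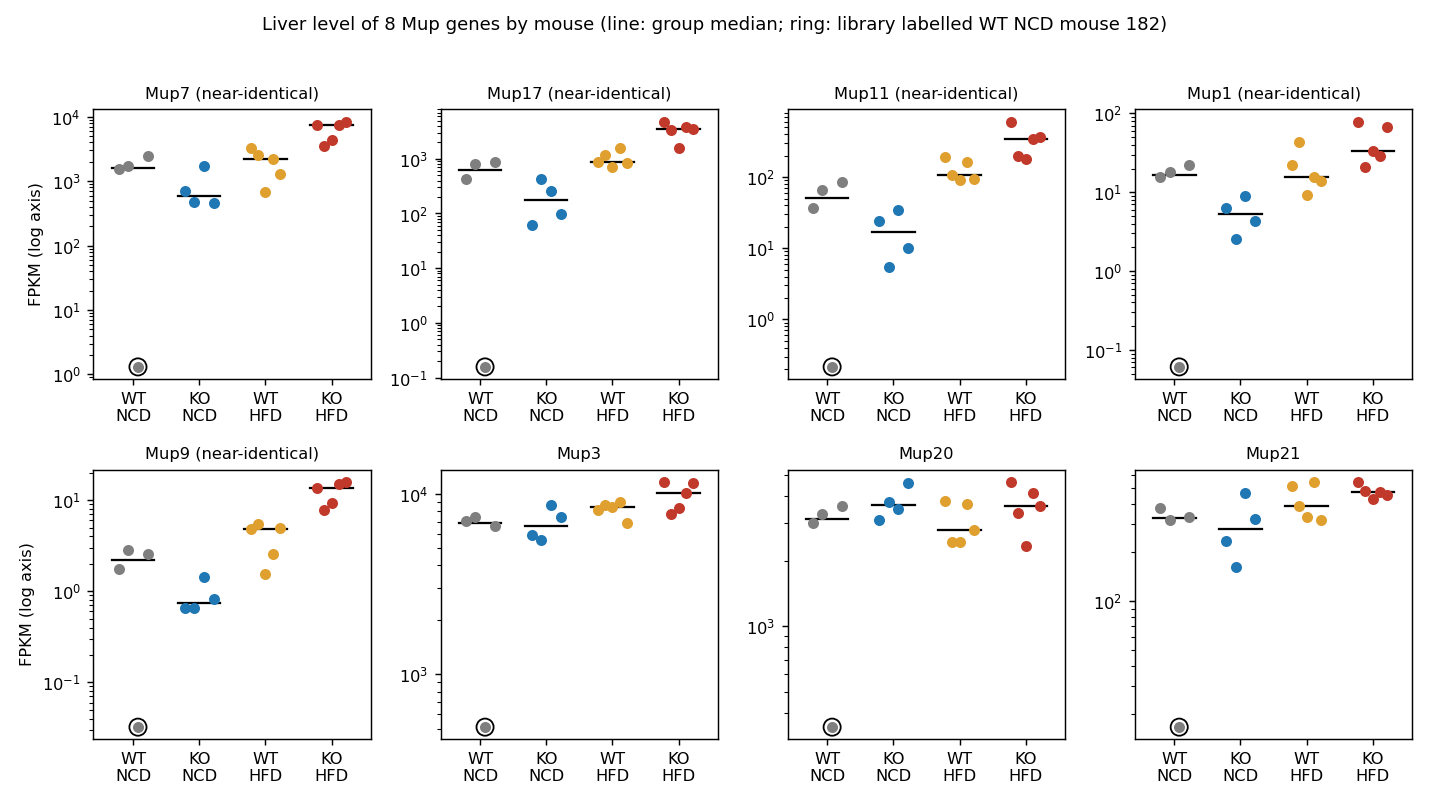
FPKM in liver (log axis, each panel with its own range) of the 8 Mup genes in the 4 groups. Points are mice, lines are group medians, and the ring marks the library labelled WT NCD mouse 182, the lowest point in every panel. The 5 near-identical genes rise from MlklAdi-KO NCD to MlklAdi-KO HFD mice without overlap, while the groups overlap for Mup3, Mup20 and Mup21.

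The first question was whether loss of Mlkl in adipocytes goes with other Mup levels in liver on HFD. All 8 fitted changes were above 0, with means 2.18 to 3.31 times those of WT mice for the 5 near-identical genes and 1.13 to 1.20 times for Mup3, Mup20 and Mup21, yet no member passed the threshold in the main test (limma across all genes, Benjamini-Hochberg adjusted p of 0.05). Of all 13215 genes, 0.129% were called higher. The median change of the members was 1.21 on the log2(FPKM + 1) scale, against 0.0017 for all genes tested.

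Mup7, which encodes a major urinary protein of the near-identical type, stood at 7374, 3539, 4330, 7546 and 8419 FPKM in the 5 MlklAdi-KO HFD livers. In the WT HFD livers it stood at 3228, 2520, 672, 2205 and 1299 FPKM. Every MlklAdi-KO liver was above every WT liver, and the fitted change was 1.77 ± 0.42 (log2, SE; adjusted p = 0.132, limma).

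Mup17 was at 4784, 3372, 1559, 3836 and 3530 FPKM in MlklAdi-KO HFD and at 862, 1196, 703, 1562 and 837 FPKM in WT HFD livers. The groups overlapped by a single near-tie, MlklAdi-KO mouse 153 beside WT mouse 162. The change was 1.70 ± 0.30 (log2, SE; adjusted p = 0.0700, limma). Leaving out each mouse in turn gave changes from 1.55 to 1.96. The largest came without mouse 153, the MlklAdi-KO mouse with the lowest Mup17 level (adjusted p = 0.0230, limma). That fit drops the value that goes most against the difference, so it does not replace the main result, which missed the threshold.

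Mup9, which had the lowest measured level and is the least certain by sequence, was at 13.5, 7.85, 9.44, 15.2 and 15.9 FPKM in MlklAdi-KO HFD and at 4.89, 5.48, 1.53, 2.55 and 4.99 FPKM in WT HFD livers. These groups did not overlap either, with a change of 1.49 ± 0.28 (log2, SE; adjusted p = 0.0849, limma). Mup7 and Mup9 were the 2 members whose groups were fully apart, as were 1.38% of all genes with every MlklAdi-KO mouse higher.

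Mup11 was at 602, 200, 178, 346 and 364 FPKM in MlklAdi-KO HFD livers and at 190, 109, 91.3, 165 and 93.4 FPKM in WT HFD livers, overlapping through the lowest MlklAdi-KO and the highest WT mouse. Mup1 was at 78.7, 20.9, 33.7, 28.8 and 66.4 FPKM against 22.4, 43.6, 9.16, 15.6 and 13.7 FPKM and overlapped more widely. Their changes were 1.30 ± 0.34 and 1.11 ± 0.44 (log2, SE; adjusted p = 0.170 and 0.351, limma).

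The 3 divergent genes had the smallest fitted changes. Mup3, whose reads fit no other gene, was at 11605, 7705, 8296, 10086 and 11410 FPKM in MlklAdi-KO HFD livers and at 8098, 8607, 8376, 8955 and 6885 FPKM in WT HFD livers. Mup20 (darcin) was at 4628, 3316, 2336, 4129 and 3590 FPKM against 3772, 2444, 2437, 3664 and 2791 FPKM, and Mup21 was at 429 to 545 FPKM against 315 to 541 FPKM. All 3 overlapped between genotypes, with changes of 0.25 ± 0.13, 0.24 ± 0.20 and 0.21 ± 0.15 (log2, SE; adjusted p = 0.470, 0.657 and 0.615, limma).

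The call on HFD depended on the test. Unadjusted limma p-values were under 0.05 for 5 of the 8 members and for 12.6% of all genes. On whole reads recovered from the FPKM, edgeR's quasi-likelihood test called Mup17 higher (log2 1.73, adjusted p = 0.0449; 0.125% of all genes were called higher), and DESeq2 called Mup7, Mup9, Mup11 and Mup17 higher (adjusted p = 0.00400, 2.57e-05, 0.0291 and 1.97e-05; 1.05% of all genes were called higher). Two-sided exact permutation tests of single members, not adjusted, gave p = 0.00794 for Mup7 and Mup9, the smallest that 5 against 5 mice allow, and p = 0.0159 for Mup11 and Mup17. For Mup7 and Mup9 this only restates that the groups did not overlap. Because the members were chosen with earlier results of these data known, unadjusted p-values of members are descriptions and no independent evidence.

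**Figure D2:**
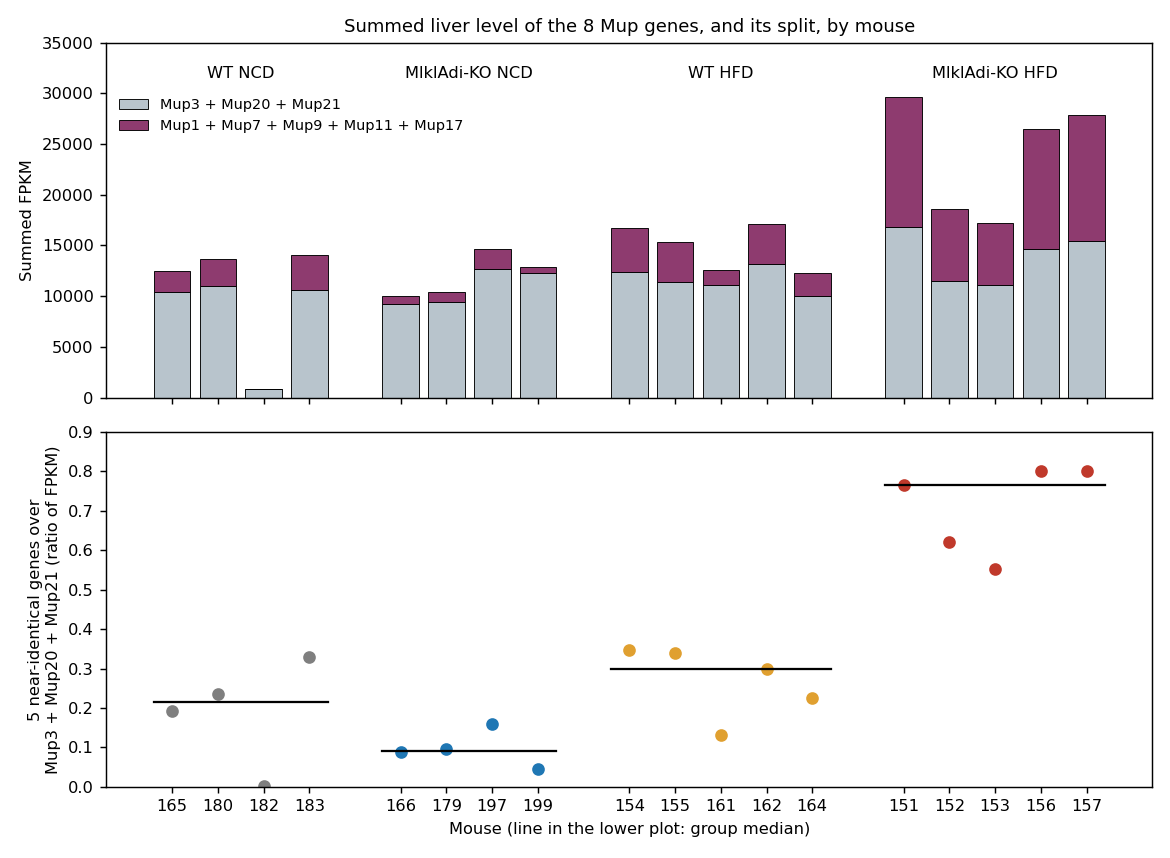
Upper plot, summed liver FPKM of the 8 Mup genes by mouse (bars from 0), split into the 5 near-identical genes (dark) and Mup3, Mup20 and Mup21 (light). Lower plot, the ratio of these 2 sums by mouse with group medians as lines, which lies at 0.552 to 0.802 in MlklAdi-KO HFD mice and at 0.348 or below in all other livers.

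Sums remove the doubt over how counted reads were split among their own members, but not over reads shared with other Mup genes such as Mup12, Mup15, Mup19 and Mup22. If reads that fit several genes were left uncounted, sums lack them too. The sums, their ratio and the shares within the sum are then uncertain as levels. The 5 near-identical genes together reached 12853, 7140, 6110, 11773 and 12396 FPKM in MlklAdi-KO HFD livers and 4306, 3874, 1476, 3951 and 2248 FPKM in WT HFD livers, a ratio of means of 3.17 with no overlap. Mup3, Mup20 and Mup21 together averaged 13896 ± 2506 and 11625 ± 1212 FPKM (SD, n = 5 each), overlapping, with a ratio of 1.20. The sum over all 8 was 1.62 times as high in MlklAdi-KO as in WT HFD mice, again without overlap, by a margin of 17171 FPKM in the lowest MlklAdi-KO to 17111 FPKM in the highest WT mouse. Over the 22 Mup genes of the table the ratio was 1.71 and the groups overlapped, with 23899 FPKM in the lowest MlklAdi-KO and 24031 FPKM in the highest WT mouse. No test was run on sums, because the members were chosen with earlier results known.

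The near-identical genes made up a larger part of the family in MlklAdi-KO HFD mice. Their sum was 0.709 ± 0.115 of the sum of Mup3, Mup20 and Mup21 there (SD, n = 5), and 0.269 ± 0.091 in WT HFD mice (n = 5). Within the sum over 8, Mup7 took 25.6% against 12.9% and Mup17 took 14.1% against 6.90%.

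The second question was the same contrast on NCD, and here the answer turned on the library labelled mouse 182. With it, no member was called by limma (0.00758% of all genes were), edgeR or DESeq2, no unadjusted limma p was under 0.05, and the fitted changes ranged from -0.62 to 1.03 (log2) with standard errors up to 2.06. Without it, no member was called by limma either (0.0536% of all genes were), but the fitted changes of the 5 near-identical genes ran from -0.84 to -2.06 and those of Mup3, Mup20 and Mup21 from -0.31 to 0.17. Unadjusted p-values were then under 0.05 for these 5 genes and for 5.66% of all genes.

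Mup1 was at 6.27, 2.54, 8.94 and 4.35 FPKM in MlklAdi-KO NCD livers and at 15.6, 17.8 and 22.2 FPKM in the WT NCD livers, with 0.0609 FPKM in the library labelled mouse 182. Mup11 was at 24.2, 5.47, 34.7 and 10.1 FPKM against 36.4, 65.5 and 86.0 FPKM, with 0.214 FPKM in that library. Mup9 was at 0.662, 0.652, 1.45 and 0.832 FPKM against 1.77, 2.81 and 2.60 FPKM, with 0.0322 FPKM in that library. Left without that library, these 3 genes had every MlklAdi-KO mouse below every WT mouse, as did 3.91% of all genes.

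Mup7 was at 710, 476, 1710 and 457 FPKM in MlklAdi-KO NCD livers and at 1536, 1712 and 2484 FPKM in WT NCD livers, with 1.31 FPKM in the library labelled mouse 182. Mup17 was at 62.0, 427, 254 and 97.1 FPKM against 427, 809 and 871 FPKM, with 0.156 FPKM in that library. MlklAdi-KO mouse 197 for Mup7 and mouse 179 for Mup17 reached the lowest WT mice, so both groups overlapped.

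Without the library labelled mouse 182 the changes were -1.67 ± 0.32 for Mup1 (log2, SE; adjusted p = 0.365, limma), -0.84 ± 0.17 for Mup9 (adjusted p = 0.414) and -1.91 ± 0.58, -1.38 ± 0.44 and -2.06 ± 0.63 for Mup11, Mup7 and Mup17 (adjusted p = 0.748, 0.754 and 0.748). DESeq2 called Mup1 and Mup9 lower in this setting (adjusted p = 0.0374 and 0.0446; 0.157% of all genes were called lower), and edgeR called none. Summed over the 5 near-identical genes, MlklAdi-KO NCD livers held 803, 912, 2009 and 569 FPKM and WT NCD livers 2017, 2607 and 3465 FPKM, with 1.77 FPKM in the library labelled mouse 182.

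Mup3 showed no such split, at 5886, 5563, 8688 and 7417 FPKM in MlklAdi-KO NCD and 7066, 7440 and 6642 FPKM in WT NCD livers, with 509 FPKM in the library labelled mouse 182. Mup20 was at 3085, 3742, 3478 and 4578 FPKM against 2982, 3288 and 3599 FPKM, with 343 FPKM in that library. Mup21 was at 236, 163, 468 and 320 FPKM against 377, 316 and 332 FPKM, with 16.7 FPKM in that library.

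The third question was the response to HFD in each genotype. In MlklAdi-KO mice 5 of 8 members rose, exactly the 5 near-identical genes, where 11.9% of all genes were called higher. Mup17 rose by 4.32 ± 0.54 (log2, SE; adjusted p = 0.000625, limma) and Mup11 by 4.27 ± 0.52 (adjusted p = 0.000554), from 210 ± 167 to 3416 ± 1174 FPKM and from 18.6 ± 13.4 to 338 ± 170 FPKM (SD, n = 4 and 5). Mup7 rose by 3.04 ± 0.41 (adjusted p = 0.000960), Mup9 by 2.79 ± 0.21 (adjusted p = 4.35e-05) and Mup1 by 2.77 ± 0.42 (adjusted p = 0.00171).

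For these 5 genes every HFD mouse was above every NCD mouse, which held for 11.6% of all genes. Mup21 and Mup3 missed the threshold narrowly, at 0.78 ± 0.25 and 0.52 ± 0.17 (log2, SE; adjusted p = 0.0503 and 0.0596, limma), and Mup20 was at -0.07 ± 0.19 (adjusted p = 0.834). With TPM scaling and with scaling on genes outside the family, Mup3 and Mup21 passed as well, which made 7 of 8. In a single fit of all 18 livers, whose spread includes the library labelled mouse 182, Mup7 was lost (adjusted p = 0.133). The sum over all 8 was 2.0 times as high on HFD, and that over the near-identical genes 9.37 times, from 1073 ± 640 to 10054 ± 3175 FPKM (SD, n = 4 and 5).

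In WT mice the main test called at most 1 member. With the library labelled mouse 182 no member was called, where 25.3% of all genes were called in either direction, no unadjusted limma p of a member was under 0.05, and edgeR and DESeq2 called none. Without it, Mup11 rose by 1.05 ± 0.33 (log2, SE; adjusted p = 0.0405, limma), from 62.6 ± 24.9 to 130 ± 45 FPKM (SD, n = 3 and 5), where 14.0% of all genes were called higher. Mup11 was also the only member with every HFD mouse above every NCD mouse, a pattern seen for 16.5% of all genes without that library. Mup7 was at -0.11 ± 0.47, Mup1 at -0.01 ± 0.41, Mup17 at 0.56 ± 0.31 and Mup9 at 0.45 ± 0.31 (log2, SE; adjusted p = 0.892, 0.986, 0.205 and 0.312). TPM scaling and scaling on genes outside the family called Mup3 besides Mup11 in that setting.

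The genotype comparisons and the diet comparisons share groups, so their values are not independent of each other. Whether the HFD response differed between genotypes was tested as the interaction over all livers. Limma called no member with the library labelled mouse 182 (0.0151% of all genes were called) or without it (0.0227%). With it, the unadjusted p was under 0.05 for Mup9 alone (1.91 ± 0.50, log2, SE; adjusted p = 0.266), and edgeR and DESeq2 called none. Without it, the unadjusted p was under 0.05 for the 5 near-identical genes. Their interaction estimates were then 3.75 ± 0.70 for Mup17, 3.21 ± 0.69 for Mup11, 3.15 ± 0.67 for Mup7, 2.78 ± 0.64 for Mup1 and 2.34 ± 0.39 for Mup9 (log2, SE; adjusted p = 0.0868, 0.157, 0.157, 0.178 and 0.0654, limma). In that setting edgeR called Mup9 (adjusted p = 0.0489; 0.0193% of all genes were called higher), and DESeq2 called all 5 (adjusted p from 4.51e-06 for Mup9 to 0.0318 for Mup1; 0.275% of all genes were called higher). Estimates for Mup3, Mup20 and Mup21 were 0.30 ± 0.21, 0.08 ± 0.28 and 0.52 ± 0.34.

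**Figure D3:**
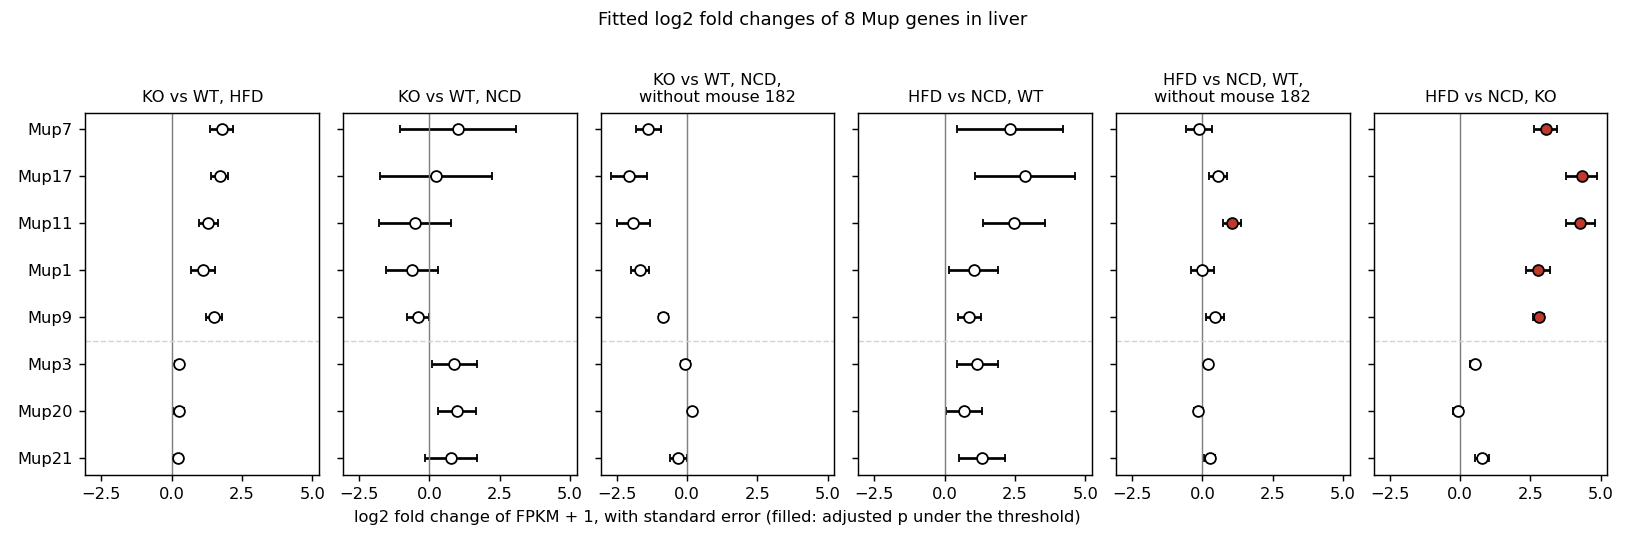
Log2 fold changes of FPKM + 1 fitted by limma, with standard errors, for the 8 Mup genes (rows) in the liver comparisons (panels), with the near-identical genes above the dashed line. Filled points passed the threshold: the 5 near-identical genes between HFD and NCD in MlklAdi-KO mice, and Mup11 in WT mice without the library labelled mouse 182.

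Over the 17 livers without the library labelled mouse 182, log2 levels of the 5 near-identical genes had pairwise Pearson r of 0.80 to 0.93 (10 pairs), which includes the differences between groups and, possibly, shared reads. Between the group of 5 and the other 3 members r ranged from -0.03 to 0.80 (15 pairs), and among Mup3, Mup20 and Mup21 from 0.15 to 0.80 (3 pairs). With group means removed, r was 0.11 to 0.77 within the group of 5 (median 0.56), 0.03 to 0.65 between the groups (median 0.41) and 0.38 to 0.67 among the other 3, ranges that overlap widely. These are descriptions of libraries that share depth and scaling.

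The table holds 14 further Mup genes and 27 Mup pseudogenes. All but Mup6 of these 14 averaged 1 FPKM or more in some liver group. Mup12, whose transcript holds 65.5% of the read positions of Mup1, rose with HFD in MlklAdi-KO mice by 3.61 ± 0.50, Mup15 by 3.16 ± 0.52 and Mup2 by 2.34 ± 0.42 (log2, SE; adjusted p = 0.00111, 0.00253 and 0.00396, limma), 3 of 13 tested. Over all genes, 11.9% were called higher in that contrast. None of 14 tested was called between genotypes on HFD, although Mup10, Mup12 and Mup15 were higher in every MlklAdi-KO than in every WT liver, with changes of 2.19 ± 1.53, 2.33 ± 0.53 and 1.67 ± 0.45 (adjusted p = 0.599, 0.122 and 0.192). Of all genes, 1.38% were higher in every MlklAdi-KO liver. The remaining further Mup genes overlapped between genotypes on HFD. Mup22 was at 1535 to 3545 FPKM in MlklAdi-KO HFD and 2300 to 4128 FPKM in WT HFD livers. Mup16 was at 85.2 to 305 FPKM against 27.2 to 647 FPKM. Apart from mouse 156, at 1199 FPKM, Mup10 was low, at 1.57 to 2.02 FPKM in MlklAdi-KO HFD against 0.884 to 1.10 FPKM in WT HFD livers. Mup22 and Mup12 were abundant, at 51.7 to 4128 FPKM and 0.104 to 7427 FPKM over the 18 livers, followed by Mup15 (0.0522 to 1092 FPKM), Mup19 (0 to 948 FPKM), Mup16 (0.186 to 647 FPKM), Mup14 (0.803 to 465.5 FPKM), Mup13 (0.147 to 336 FPKM), Mup18 (0.104 to 255 FPKM) and Mup2 (0.145 to 28.9 FPKM).

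A few of these genes were high in single livers. Mup10 reached 1199 FPKM in mouse 156 and 544 FPKM in mouse 166, both MlklAdi-KO, against a median of 1.10 FPKM. Mup8 reached 96.9 FPKM in mouse 157 and at most 8.17 FPKM elsewhere, Mup4 reached 14.4 FPKM in mouse 154 and at most 0.374 FPKM elsewhere, and Mup5 was at 10.1 FPKM in mouse 156 and 5.97 FPKM in the next. Summed over the 22 Mup genes, livers held 33589 ± 8102 FPKM in MlklAdi-KO HFD, 19700 ± 3527 in WT HFD, 14715 ± 3083 in MlklAdi-KO NCD and 17469 ± 1065 in WT NCD mice without the library labelled mouse 182 (SD, n = 5, 5, 4 and 3).

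The library labelled WT NCD mouse 182 differed from the other livers in many further sex-biased genes. Over all genes it held the highest value of the 18 livers for 13.3% and the lowest for 17.9%. The 5 near-identical Mup genes drew 41 reads there in total, against 9870 to 62901 reads in the other NCD livers. Of 20 male-biased liver genes 13 were below all 17 other livers, among them the steroid hydroxylase gene Cyp2d9 (39.8 FPKM against 468 to 1024), the anion transporter gene Slco1a1 (1.47 against 62.9 to 167) and Hsd3b5 (0.125 against 17.6 to 183), and none was above, while 7 lay within their range. Of 22 female-biased genes 13 were above all others, among them Cyp2a4 (267 FPKM against at most 4.85), A1bg (12.8 against at most 0.178) and the female-specific repressor gene Cux2 (1.89 against at most 0.153), and none was below, while 9 lay within their range.

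Of 16 growth hormone signaling genes 3 were below all other livers in that library, 2 were above and 11 lay within their range. The growth hormone receptor gene Ghr was among the 3, at 42.0 FPKM against 61.6 to 99.1 FPKM. Stat5b was within, at 17.5 FPKM against 14.2 to 20.6 FPKM. That library held the highest value for 13.3% and the lowest for 17.9% of all genes. The Y-linked gene Ddx3y was at 16.97 FPKM there, within the 15.6 to 21.0 FPKM of the other livers, and the Y-linked gene Eif2s3y was at 12.1 FPKM, below the 13.7 to 18.2 FPKM of the other livers. Cell markers moved too: 3 of 4 cholangiocyte and 3 of 4 stellate cell markers were above all other livers, with Spp1 and Col1a1 among them, and of 6 hepatocyte markers Alb was above and 2 were below. Of the Kupffer cell and macrophage markers 1 was above and 2 were below, and of the endothelial markers 1 was above and 1 below. All 4 adipocyte markers lay within the range of the other livers. The part of any of these in the Mup level of that library was not tested.

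**Figure D4:**
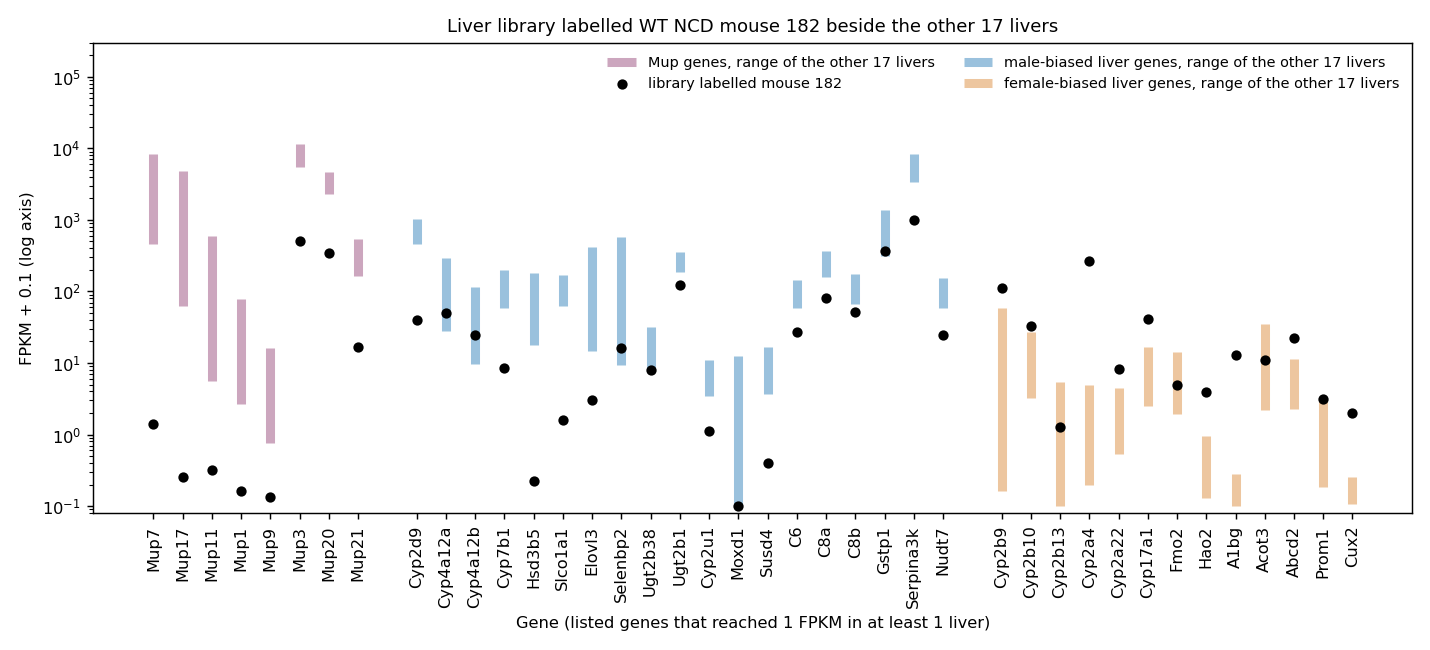
FPKM + 0.1 (log axis) in the liver library labelled WT NCD mouse 182 (black points) beside the range of the other 17 livers (bars) for the 8 Mup genes and for male-biased and female-biased liver genes that reached 1 FPKM. All Mup points and most male-biased points lie under their bars, and most female-biased points above.

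Genes of the regulatory pathway were followed in the same fits, from lists of general knowledge that were drawn up with earlier results known. Between genotypes on HFD, 1 of 15 growth hormone signaling genes tested was called, Igfbp1, an insulin-suppressed IGF binding protein gene, at -1.49 ± 0.23 (log2, SE; adjusted p = 0.0401, limma), where 0.0681% of all genes were called lower. None of 19 male-biased, 9 female-biased, 20 regulator and 26 lipocalin and secreted protein genes was called by limma, with unadjusted p-values under 0.05 for 8, 3, 1 and 5 of them. Over all genes in this contrast the unadjusted limma p was under 0.05 for 12.6%. The median change was 0.57 for the male-biased and -0.59 for the female-biased genes, against 0.002 for all genes. On NCD none of these lists had a call, with or without the library labelled mouse 182. Without it, unadjusted limma p-values were under 0.05 for 4 of 18 male-biased, 1 of 8 female-biased, 3 of 20 regulator and 4 of 15 growth hormone signaling genes. The same held for none of 27 lipocalin and secreted protein genes and for 5.66% of all genes. None of the markers of hepatocytes, Kupffer cells, stellate cells, endothelial cells, cholangiocytes or adipocytes tested was called between genotypes on either diet, and no B or T cell marker passed the filter.

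With HFD in MlklAdi-KO mice, where the near-identical Mup genes rose, 5 of 19 male-biased genes were higher and 3 lower. Over all genes in this contrast the shares were 11.9% higher and 10.3% lower. Selenbp2, which encodes a selenium-binding protein, rose by 4.40 ± 0.43, while Elovl3, a fatty acid elongase gene, fell by 3.51 on the log2 scale and the fatty acid hydroxylase genes Cyp4a12b and Cyp4a12a fell by 2.06 and 1.46 (adjusted p = 0.000198, 3.93e-05, 0.000382 and 0.000165, limma). Of 8 female-biased genes 3 were higher (Cyp2b9 at 2.87 ± 0.50, Acot3 at 1.74 ± 0.50 and Fmo2 at 1.24 ± 0.21) and Cyp2b10 was lower, at -1.40 ± 0.36 (adjusted p = 0.00342, 0.0321, 0.00282 and 0.0201).

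In the same contrast, with the same shares over all genes, 3 of 15 growth hormone signaling genes were higher and 1 was lower. Igfals, which stabilises circulating IGF1, rose by 1.02 ± 0.20, Ghr by 0.45 ± 0.08 and Stat5a by 0.41 ± 0.11, and Igfbp1 fell by 3.12 on the log2 scale (adjusted p = 0.00589, 0.00433, 0.0277 and 0.00102, limma). Of 20 regulators 8 were higher and none lower, with Nr1i3, the receptor CAR, at 0.98 ± 0.14, Esr1 at 0.91 ± 0.13, Trim24 at 0.55 ± 0.14 and Cebpa at 0.53 ± 0.08 (adjusted p = 0.00154, 0.00139, 0.0234 and 0.00207). Of 27 lipocalin and secreted protein genes 4 were higher and 5 lower. Lcn2 rose by 2.26 ± 0.70, Orm3 by 1.92 ± 0.41 and the haptoglobin gene Hp by 0.64 ± 0.16, while Alb fell by 0.50 (adjusted p = 0.0440, 0.00900, 0.0174 and 0.00839). Among cell markers in that contrast, Cyp2e1 was higher and Alb and Ttr lower of 6 hepatocyte genes, and no marker of another cell type was called.

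In WT mice without the library labelled mouse 182, HFD went with 3 male-biased genes higher and 8 lower of 18, and 5 female-biased genes higher and 2 lower of 9, where 14.0% of all genes were higher and 14.4% lower. Elovl3 fell by 3.39 on the log2 scale, Cyp4a12b by 2.60 and Cyp4a12a by 2.42, and Selenbp2 rose by 2.06 ± 0.53 (adjusted p = 1.23e-05, 0.000217, 0.000267 and 0.0193, limma). Cyp2b9 rose by 4.03 ± 0.41, Acot3 by 2.23 ± 0.39, Fmo2 by 1.52 ± 0.17 and Cyp2a22 by 1.20 ± 0.15 (adjusted p = 0.000242, 0.00348, 0.000407 and 0.000694). With that library in the group, the counts were 1 higher and 2 lower of 18 male-biased and 2 higher and 1 lower of 12 female-biased genes, where 13.2% of all genes were higher and 12.1% lower.

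The counts that follow are for HFD in WT mice without the library labelled mouse 182, where 14.0% of all genes were higher and 14.4% lower. Of 15 growth hormone signaling genes 4 rose and 1 fell. Among them the STAT5 feedback gene Cish (1.73 ± 0.32), Igfals (0.73 ± 0.09) and Igf1 (0.48 ± 0.05) rose, and Igfbp1 fell by 1.41 on the log2 scale (adjusted p = 0.00464, 0.000523, 0.000302 and 0.000461, limma). Of 19 regulators 8 were higher and 1 lower. Onecut1, which encodes a factor that reads ATCAAT-like sites, rose by 2.60 ± 0.23, Nr1i3 by 1.07 ± 0.20 and Esr1 by 0.71 ± 0.12, and the repressor gene Bcl6 fell by 0.84 (adjusted p = 0.000122, 0.00436, 0.00277 and 0.0169). Of 26 lipocalin and secreted protein genes 7 were higher and 7 lower, with Orm3 and Lcn2 each at 3.14 ± 0.16, Orm2 at 2.30 ± 0.19 and Hp at 0.57 ± 0.09 (adjusted p = 1.10e-05, 1.10e-05, 0.000103 and 0.00239). Among cell markers, 3 of 4 stellate cell, 2 of 5 Kupffer cell and macrophage and 1 of 6 hepatocyte genes and the adipocyte and lipid droplet gene Cidec were higher, and 4 hepatocyte genes, Sox9 of cholangiocytes and Clec4g of endothelium were lower. Their part in the Mup levels was not tested.

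The genes whose levels followed the summed Mup level over the 18 livers were Sult2a8 (Pearson r of log2 values 0.98), Cyp2d9 (0.97), Il1rap (0.95), Ces3a (0.95) and Slc25a16 (0.95) of 10097 genes, and with group means removed Slco1a1 (0.99), Cyp2d9 (0.98), Sult2a8 (0.98), Cyp7b1 (0.97) and Ces3a (0.96). Without the library labelled mouse 182, r over 17 livers was 0.84 to 0.87 for the first 5 genes, and Cela1 (0.93) and Os9 (0.91) came first. With group means removed, it was 0.83 for Slco1a1, 0.74 for Cyp2d9, 0.61 for Sult2a8, 0.87 for Cyp7b1 and 0.81 for Ces3a. In that ranking Rpl10 (0.91), Rpl12 (0.90), Cdc37 (0.89), Rpl8 (0.89) and Rplp1 (0.89) came first.

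In visWAT, the other tissue sequenced, the summed level of the 8 members was 0.0763 to 15.0 FPKM in 16 of 18 libraries. MlklAdi-KO HFD mouse 156 stood at 305.5 FPKM and WT HFD mouse 164 at 51.7 FPKM. In these 2 libraries other liver transcripts were high as well, with Alb at 460 and 53.2 FPKM, Apoa1 at 131 and 23.5 FPKM and Ttr at 98.2 and 16.2 FPKM. Elsewhere Alb was at most 50.8, Apoa1 at most 10.3 and Ttr at most 6.02 FPKM. The total over all 6 hepatocyte markers did not set both libraries apart, at 1178 FPKM in mouse 156 and 153 FPKM in mouse 164. It was 858 to 1976 FPKM in the NCD visWAT libraries and 23.6 to 337 FPKM in the other HFD visWAT libraries. Mup3 and Mup20 led the summed Mup level in mouse 156, at 152 and 74.3 FPKM, and Mup7 was at 59.8 FPKM. The visWAT library labelled WT NCD mouse 182 was at 2.69 FPKM, of which Mup3 made up 1.76 FPKM, and all 5 near-identical genes were at 0 there.

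**Figure D5:**
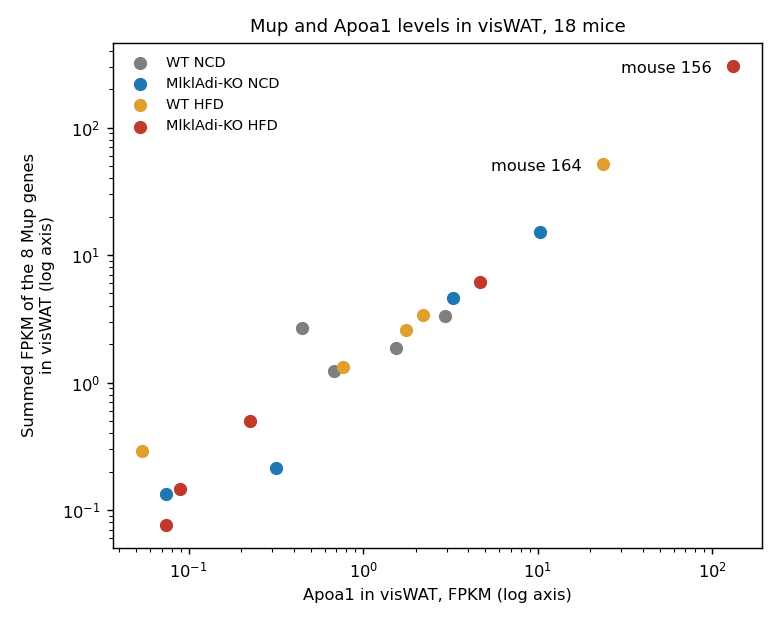
Summed FPKM of the 8 Mup genes in visWAT against Apoa1, an apolipoprotein gene of liver, in the same libraries (both log axes, points are the 18 mice by group). Mouse 156, at 305.5 FPKM, and mouse 164, at 51.7 FPKM, are the highest on both axes.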

How the data were processed

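PolyA-selected RNA (RIN above 9) was sequenced as paired reads of 150 bases. Per the labels and the study's methods, the authors trimmed with fastp, mapped to mm39 with HISAT2 and counted on genes with featureCounts 1.5.0-p3. Strandedness, annotation release and the treatment of reads fitting several genes are not given in the sources used here. The deposited tables hold FPKM of every library and unnormalized counts for the genes in the authors' comparisons, and they also hold fold changes and p-values that were not used, like 36 further columns of per-sample values. The deposited counts gave the size behind each FPKM column, and all FPKM came out as whole reads (100%, tolerance 0.01). This size was 0.737 to 0.812 of the reads on genes in liver, so FPKM contain a scaling between libraries.

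Groups were taken from the labels. Limma 3.58.1 was fitted to log2(FPKM + 1) with a trend, with 2 groups per fit and all 18 livers for the interaction, for genes with a mean of at least 0.5 FPKM. Adjustment was by Benjamini-Hochberg over all genes, at 0.05. A fold change on this scale understates the change of low genes. EdgeR 4.0.16 and DESeq2 1.42.0 on recovered reads, other pseudocounts (0.1), filters, scalings and fits, and leaving out each mouse were alternatives. The limma, edgeR and DESeq2 fits were run on simulated data with the layout of the genotype contrast on HFD only. The 8 members are named throughout. Other Mup genes are named where a liver group averaged 1 FPKM or more, and from each list up to 4 called genes with the largest change in a comparison. Members and lists were chosen with earlier results of these data known. Replicate libraries differed by more than sampling noise (chi-square per gene at least 12.1). Sequences were read from GRCm39. Of the members, 6 have an entry in the RefSeq promoter table.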

Additional observations from a re-analysis of the deposited data

Results flagged for a closer look

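In the 4 WT NCD livers, the library labelled mouse 182 lay farther from its neighbours than Dixon's 95% criterion allows for 3 quantities. Mup3 was at 509.4 FPKM there against 6641 to 7440 FPKM in the other 3 livers, Mup21 was at 16.68 FPKM against 316.1 to 376.7 FPKM, and the sum over the 8 members was 870.9 FPKM against 12442 to 14037 FPKM. With 36 groups of values examined and 3 beyond the criterion, chance alone is expected to flag about 1 in 20. The cause was not tested. In visWAT, which no comparison used, the summed level of the members was 305.5 FPKM in MlklAdi-KO HFD mouse 156, above the range of 0.2896 to 51.67 FPKM in WT HFD visWAT. The hepatocyte transcripts Alb, Apoa1 and Ttr were high in that library too, and their part was not tested. The total over all 6 hepatocyte markers was 1178 FPKM there. It was 23.6 to 337 FPKM in the other HFD visWAT libraries and 858 to 1976 FPKM in the NCD visWAT libraries.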

How the results depend on the processing

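Of the counts of members called, 88 alternatives gave the same count, 18 gave more and 1 gave fewer, the fit of all 18 livers for the diets in MlklAdi-KO mice with 4. Alternatives that combine another choice with leaving out the library labelled WT NCD mouse 182 were chosen after seeing the data. Between genotypes on HFD, edgeR called 1 member and DESeq2 called 4 where limma called 0. Without the library labelled mouse 182, DESeq2 called 2 members between genotypes on NCD. Between diets in WT mice without it, edgeR and DESeq2 each called 1 and the TPM scale and the scale on genes outside the family each called 2. For the interaction without it, edgeR called 1 and DESeq2 called 5. Leaving out 1 mouse at a time gave 0 to 1, 0 to 0, 0 to 1, 5 to 7 and 0 to 0 members for the contrasts between genotypes on HFD and on NCD, between diets in WT and in MlklAdi-KO mice, and the interaction, and with the combinations up to 2 on NCD, 2 between diets in WT mice and 5 for the interaction. In each case the cause was not tested.

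The log2 ratio of the summed level was 0.69 between genotypes on HFD (0.61 to 0.79 leaving out 1 mouse), 0.22 on NCD (-0.16 to 0.41), 0.53 between diets in WT (0.15 to 0.72) and 1.0 in MlklAdi-KO mice (0.91 to 1.11). Without Mup3, Mup20 and Mup21 it was 1.66 between genotypes on HFD, -0.91 on NCD and 3.23 between diets in MlklAdi-KO mice, since those 3 genes held most of the sum. On NCD it turned negative without the library labelled mouse 182, at -0.16, at -0.24 with all Mup rows, at -1.33 without Mup3, Mup20 and Mup21, at -0.14 on the TPM scale and on recovered reads, and at -0.15 on the scale of genes outside the family.

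Single genes turned direction on NCD between genotypes. With all mice, the log2 change of Mup17 went from 0.24 to -1.32 with edgeR and -1.33 with DESeq2, and that of Mup7 from 1.03 to -0.76 and -0.77. Without the library labelled mouse 182, Mup17 was at -1.74 with both, -2.04 on both other scales and -2.06 in a fit of all remaining livers, Mup7 was at -1.18 with both, -1.36 (TPM), -1.37 (genes outside the family) and -1.38, Mup21 was at -0.20 (edgeR), -0.19 (DESeq2), -0.28, -0.29 and -0.31, and Mup3 was at -0.03 with edgeR, DESeq2 and TPM, -0.04 and -0.06. Leaving out 1 mouse gave -2.06 to 1.13 for Mup17, -1.38 to 1.98 for Mup7, -1.91 to 0.14 for Mup11, -0.31 to 1.17 for Mup21 and -0.06 to 1.23 for Mup3.

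Between diets in WT mice without that library, Mup20 was at -0.13 (edgeR), -0.14 (DESeq2 and the fit of all remaining livers), -0.07 (TPM) and -0.06 (genes outside the family), Mup7 was at -0.04 (TPM), -0.03 (genes outside the family) and -0.11 (all remaining livers), and Mup1 was at -0.01. Leaving out 1 mouse gave -0.14 to 0.98 for Mup20, -0.11 to 3.25 for Mup7 and -0.01 to 1.47 for Mup1. In MlklAdi-KO mice Mup20 ran from -0.17 to 0.08. For the interaction without that library, Mup20 was at 0.07 (edgeR), 0.08 (DESeq2) and 0.03 (genes outside the family), Mup21 was at 0.38, 0.39, 0.43 (TPM) and 0.47, and Mup3 was at 0.29, 0.30, 0.21 (TPM) and 0.26. Leaving out 1 mouse gave -1.05 to 0.08, -0.95 to 0.52 and -0.98 to 0.30 for these, and -0.21 to 3.15 for Mup7. Of all other values of single genes, 1593 kept direction and side of the threshold, 68 lost and 32 gained a call.

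No paired analysis was possible because each mouse gave 1 liver library and the liver groups compared share no mouse number. The scale mattered for counts over all genes: calls between genotypes on HFD were 17 higher and 9 lower, and 12 higher and 15 lower on the TPM scale. The share of calls that were higher was 52.0% between diets in WT mice and 65.0% on the scale of genes outside the family, and 53.5% and 61.0% in MlklAdi-KO mice (49.3% on the TPM scale). Depth was not limiting for the abundant members, while Mup9, and the 5 near-identical genes in the library labelled mouse 182, rest on few reads.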
